A study of Mus musculus with 6 samples.

Results

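The miRNAs examined here are the miR-10 and miR-196 arms whose hairpins lie inside the mouse Hox clusters. They were chosen by name as the 5 listed arms of mir-10a, mir-10b, mir-196a and mir-196b, namely mmu-miR-10a-5p, mmu-miR-10a-3p, mmu-miR-10b-5p, mmu-miR-196a-5p and mmu-miR-196b-5p, out of 1966 mature miRNAs in the count table, of which 770 had at least 1 count. Small RNA was sequenced from EVs of 2 sources with 3 libraries each. All 6 libraries came from Rab27A fl/fl mice, and neither Cre, sex nor age is given in the labels. The study's methods put all its mice on the C57BL/6 background and state both sexes and an age range for its experiments, not per library. Colon EVs were collected from pieces of colon kept in culture for 16 h and were run on an iodixanol gradient, of which fraction 2 was sequenced. The labels and the study's methods give the gradient for colon EVs alone, whereas its results text speaks of a gradient for both sources. BMDC EVs came from bone marrow cells differentiated with GM-CSF for 7 days into dendritic cells, in a culture that is known to hold other myeloid cells as well. The labels number the libraries but do not say whether they came from separate mice or cultures, so p-values measure the spread between these libraries. If the labels are right, the isolation differed along with the source, and these cannot then be told apart. The culture, as described, differed with the source in either case, and its effect cannot be separated from that of the source. By the study's methods, explants were given serum stripped of exosomes, while no such step is named for the BMDC culture. Whether miRNAs from serum are part of the counts of either source was not tested.

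Hox genes encode homeodomain transcription factors that set position along the body axis, and they lie in clusters in which gene order follows the order of expression along that axis. The miR-10 hairpins sit near the Hox4 genes and the miR-196 hairpins near the Hox9 and Hox10 genes, and they are expressed in regions of the body that overlap those of their Hox neighbours. A mature miRNA guides the silencing complex to messenger RNAs mainly through its seed, bases 2 to 8, and miR-196 is known for directing cleavage of the Hoxb8 transcript. miR-196b and its neighbour Hoxa9 are also known from immature blood cells and leukaemia.

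The mature sequences of the 5 arms are shown first, since the paralogs differ so little that the reading of every later comparison depends on that difference. They are taken from RefSeq on GRCm38.p6, where 5 of 5 names matched, and capitals mark the seed.
mmu-miR-10a-5p: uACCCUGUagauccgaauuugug
mmu-miR-10b-5p: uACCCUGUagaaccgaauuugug
mmu-miR-196a-5p: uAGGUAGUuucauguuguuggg
mmu-miR-196b-5p: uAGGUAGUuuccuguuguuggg
mmu-miR-10a-3p: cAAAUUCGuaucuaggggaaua

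miR-10a-5p and miR-10b-5p shared all 23 bases but 1, with the substitution U12A from miR-10a-5p to miR-10b-5p, counted from 1 at the 5′ end. miR-196a-5p and miR-196b-5p shared all 22 bases but 1, with A12C from miR-196a-5p to miR-196b-5p. Both changes lie outside the seed, so each pair has a single seed, and of 1679 mature mouse miRNAs in the RefSeq table, ACCCUGU was the seed of miR-10a-5p and miR-10b-5p alone and AGGUAGU that of miR-196a-5p and miR-196b-5p alone. let-7a-5p holds the same 7 letters AGGUAGU, but starting at its base 3 rather than at base 2, so that its own seed is GAGGUAG. The only difference between paralogs is thus 1 base, and how reads that match either one were divided is not given in the sources used here. Values that are not whole numbers occurred in 3 libraries for miR-10a-5p, 3 for miR-10b-5p, 5 for miR-196a-5p and 5 for miR-196b-5p, whereas miR-10a-3p had whole counts in every library.

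The 5 arms come from 5 hairpins in 4 Hox clusters, because miR-196a-5p is cut from a pair of hairpins with the same 5p arm. The hairpins are shown because the 3p arms, unlike the 5p arms, tell the copies of mir-196a apart, and capitals mark the mature arms.
Mir10a: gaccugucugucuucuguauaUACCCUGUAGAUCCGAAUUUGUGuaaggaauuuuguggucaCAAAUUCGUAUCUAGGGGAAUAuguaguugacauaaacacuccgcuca
Mir10b: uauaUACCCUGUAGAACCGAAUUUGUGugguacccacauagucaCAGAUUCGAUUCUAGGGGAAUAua
Mir196a-1: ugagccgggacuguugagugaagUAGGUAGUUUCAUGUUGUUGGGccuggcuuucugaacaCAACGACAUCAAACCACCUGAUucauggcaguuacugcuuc
Mir196a-2: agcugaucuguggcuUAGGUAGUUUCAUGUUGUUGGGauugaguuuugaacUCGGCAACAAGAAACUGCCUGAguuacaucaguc
Mir196b: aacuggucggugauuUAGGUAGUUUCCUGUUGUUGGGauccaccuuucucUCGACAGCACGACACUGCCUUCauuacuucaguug

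On GRCm38, Mir10a lies in the Hoxb cluster at chr11:96317165-96317274 on the plus strand, 993 bases upstream of Hoxb4 and outside the transcripts of any other annotated gene. Mir196a-1 lies in the same cluster at chr11:96265164-96265265 on the plus strand, between Hoxb13 and Hoxb9, with a gap of 51.9 kb to Mir10a. Mir10b lies in the Hoxd cluster at chr2:74726070-74726137 on the plus strand, in introns of Hoxd4 and Hoxd3 transcripts. Mir196a-2 lies in the Hoxc cluster at chr15:102973350-102973434 on the plus strand, inside a noncoding Hoxc5 transcript (an intron of it) and 1.46 kb past Hoxc10. Mir196b lies in the Hoxa cluster at chr6:52230081-52230165 on the minus strand, in an exon or intron of noncoding Hoxa9 transcripts and 1.03 kb past Hoxa10. Mir10b, Mir196a-2 and Mir196b are on the same strand as the Hox genes that overlap them, and the map of Hox genes around each hairpin shows these positions.

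**Figure D1:**
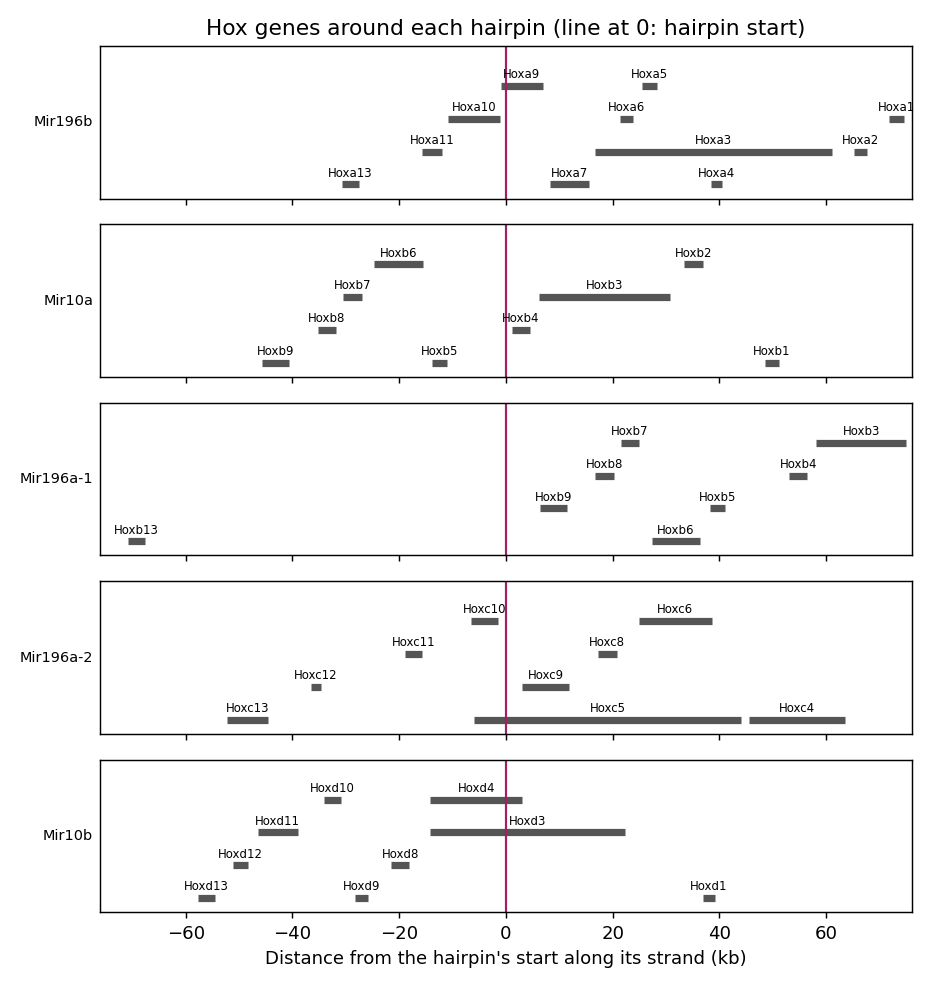
Hox genes (grey bars) around the start of each of the 5 hairpins (line at 0), as distance along the hairpin's strand in kb, with 1 panel per hairpin. Mir10a starts just before Hoxb4 and Mir10b within Hoxd4 and Hoxd3, while the 3 mir-196 hairpins lie within or beside the Hox9 and Hox10 genes or, for Mir196a-1, upstream of Hoxb9.

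The libraries held 173358 to 645303 counts for colon EVs and 83997 to 178454 for BMDC EVs, so that 3 counts stood for 4.65 to 17.3 CPM (counts per 1e+06 counts of the library) in colon EVs and 16.8 to 35.7 in BMDC EVs. Levels are given as TMM-normalized CPM, CPM of a library total that edgeR adjusted for composition, with factors of 0.780 to 0.919 for colon EVs and 1.11 to 1.22 for BMDC EVs. Normalized CPM was computed from counts rounded to whole numbers, whereas the counts printed beside it are those before rounding. The sources held the markers of their labels, on lists chosen with earlier results of these data known. All 9 intestinal epithelial miRNAs tested were higher in colon EVs, with summed levels of 248132 to 382729 normalized CPM against 3393 to 6699 in BMDC EVs, and all 6 blood cell miRNAs were higher in BMDC EVs, with 241985 to 277036 against 5867 to 11780. The endothelial markers (2 of 2 tested) and the 1 tested of 4 smooth muscle and mesenchymal markers were also higher in colon EVs, with sums of 785 to 1317 against 194 to 541 and of 1287 to 2288 against 45.3 to 140. The red cell markers were too low to test, with sums of 0 to 56.5 in colon EVs and 10.1 to 30.04 in BMDC EVs, and no marker on these lists was at 0 in all 6 libraries.

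Of the HOX cluster miRNAs, miR-196a-5p, miR-196b-5p and miR-10a-5p were abundant in colon EVs, whereas in BMDC EVs miR-10a-5p was well above the other 4 arms. Together the 5 arms made up 2.71% ± 0.217 (SD, n = 3) of the counts of colon EV libraries and 0.212% ± 0.0180 (SD, n = 3) of those of BMDC EV libraries. The miR-196 pair led in colon EVs and miR-10a-5p led in BMDC EVs. In bulk EV preparations, fewer vesicles carrying a miRNA and less of it per vesicle cannot be told apart.

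miR-196a-5p had 9262, 3322 and 2238 counts in the 3 colon EV libraries, or 18395, 16505 and 14053 normalized CPM, and ranked 18 among all miRNAs by its mean level. In BMDC EVs it had 36.3, 37 and 38.3 counts, or 233, 371 and 191 normalized CPM, and ranked 115. Every colon EV library thus lay far above every BMDC EV library, and the means were 16317 ± 2177 and 265 ± 93.8 normalized CPM (SD, n = 3 each). miR-196a-5p was 63.5-fold higher in colon EVs. Its log2 fold change, BMDC EV over colon EV, was −5.99 (SE 0.299, Benjamini-Hochberg adjusted p = 2.05e-11 in edgeR's quasi-likelihood test, adjusted over 220 miRNAs). Without BMDC EV library 3 the log2 fold change was −5.36, the alternative that moved it most towards 0.

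miR-196b-5p, which has the same seed, had 5698, 2067 and 1280 counts in colon EVs, or 11316, 10270 and 8037 normalized CPM, and ranked 25. In BMDC EVs it had 35.5, 26 and 31.5 counts, or 233, 260 and 161 normalized CPM, and ranked 129. The groups did not overlap, with means of 9874 ± 1675 and 218 ± 51.3 normalized CPM (SD, n = 3 each). The level was 46.2-fold higher in colon EVs (log2 fold change −5.53, SE 0.283, Benjamini-Hochberg adjusted p = 2.05e-11 in edgeR's quasi-likelihood test), and −4.90 on the log2 scale without BMDC EV library 3.

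miR-10a-5p was the HOX cluster miRNA that BMDC EVs held most of. It had 204, 92 and 321 counts there, or 1321, 921 and 1616 normalized CPM, and ranked 57. In colon EVs it had 2930, 1073 and 659 counts, or 5819, 5331 and 4138 normalized CPM, and ranked 39. The lowest colon EV library was still above the highest BMDC EV library, with means of 5096 ± 865 and 1286 ± 349 normalized CPM (SD, n = 3 each). The difference was 3.94-fold (log2 fold change −1.98, SE 0.244, Benjamini-Hochberg adjusted p = 7.23e-07 in edgeR's quasi-likelihood test). Without BMDC EV library 2 it was −1.33 on the log2 scale and still passed the test.

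miR-10b-5p, the paralog of miR-10a-5p from the Hoxd cluster, was less abundant in both sources. In colon EVs it had 350.5, 127.5 and 75 counts, or 695, 636 and 471 normalized CPM. In BMDC EVs it had 1, 3 and 3.5 counts, or, with counts rounded, 6.47, 30.04 and 20.1 normalized CPM, so that the BMDC EV level rests on a handful of counts. The means were 601 ± 116 and 18.9 ± 11.8 normalized CPM (SD, n = 3 each), with a log2 fold change of −5.04 (SE 0.502, Benjamini-Hochberg adjusted p = 4.58e-08 in edgeR's quasi-likelihood test). With counts rounded and summed over the libraries, 553 from colon EVs against 8 from BMDC EVs, the ratio of CPM of the library totals was 25.6 (exact 95% interval 12.9 to 59.6, for counting error only), and without BMDC EV library 1 the fitted log2 fold change was −4.25.

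miR-10a-3p, the other arm of the mir-10a hairpin, was the rarest of the 5 in colon EVs, where it had 28, 14 and 10 counts, or 55.6, 69.6 and 62.8 normalized CPM. In BMDC EVs it had 1, 3 and 8 counts, or 6.47, 30.04 and 40.3 normalized CPM. The normalized values did not overlap, but without the composition factors they did, with a lowest colon EV value of 43.4 CPM and a highest BMDC EV value of 44.8 CPM. With means of 62.7 ± 6.98 and 25.6 ± 17.3 normalized CPM (SD, n = 3 each), the log2 fold change of −1.23 (SE 0.595) did not pass (Benjamini-Hochberg adjusted p = 0.0677 in edgeR's quasi-likelihood test). It passed with DESeq2 size factors in the same test, at a log2 fold change of −1.38 and an adjusted p of 0.0494. This arm too met the count filter through the colon EV libraries alone.

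**Figure D2:**
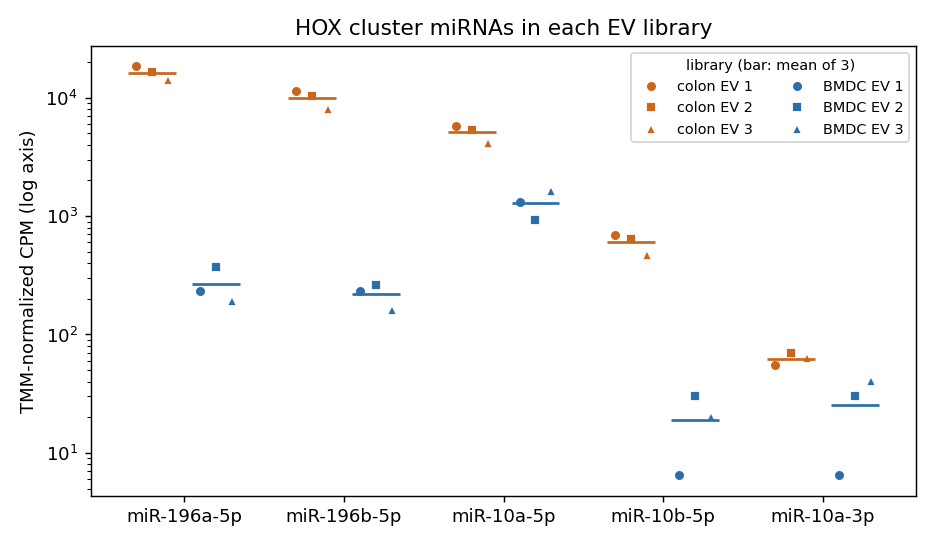
TMM-normalized CPM (log axis) of the 5 HOX cluster miRNAs in each of the 3 colon EV libraries (orange) and the 3 BMDC EV libraries (blue), with bars at the mean of 3. For all 5 arms the colon EV libraries lie above the BMDC EV libraries, as for 39.1% of the 220 miRNAs tested. The gap is widest for miR-196a-5p (16317 against 265) and narrowest for miR-10a-3p (62.7 against 25.6), which overlaps without the composition factors. miR-10b-5p and miR-10a-3p met the count filter through the colon EV libraries alone.

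The 5 arms differ in length by 1 base at most, but how evenly the library kit captures different miRNAs was not tested, so the order given here is that of their normalized CPM. In colon EVs it was miR-196a-5p, miR-196b-5p, miR-10a-5p, miR-10b-5p and miR-10a-3p, and the normalized CPM of neighbours in that order did not overlap across the 3 libraries. In BMDC EVs miR-10a-5p came first, and its lowest library (921 normalized CPM) was above the highest of any other arm (371). miR-196a-5p and miR-196b-5p came next and overlapped each other, with 191 to 371 against 161 to 260 normalized CPM. miR-10a-3p and miR-10b-5p came last and overlapped as well, with 6.47 to 40.3 against 6.47 to 30.04 normalized CPM.

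All 5 arms met the count filter, which asked for 10 or more counts in 3 or more libraries, and 4 of 5 were higher in colon EVs at an adjusted p under 0.05, beside 36.4% of the 220 miRNAs tested. In normalized CPM, all 5 arms had every colon EV library above every BMDC EV library, as did 39.1% of the miRNAs tested. For miR-10a-3p this did not hold without the composition factors. miR-10b-5p and miR-10a-3p met the count filter through the colon EV libraries alone, so their direction was partly set by that filter. This bears on the 5 arms without overlap and, for miR-10b-5p, on the 4 of 5 and on its ratio to miR-10a-5p given below. By the cutoffs in the study's methods, a base level of 100 or more (read here as the mean normalized count) with an adjusted p under 0.05, the count was 3 of 5, beside 21.8% of the miRNAs tested. These were miR-196a-5p, miR-196b-5p and miR-10a-5p, while miR-10b-5p had a mean normalized count of 59.3. With a log2 fold change past 2 asked for as well, a boundary added here and not among those cutoffs, the count was 2 of 5, beside 13.2% of the miRNAs tested, because the −1.98 of miR-10a-5p falls just short of it. When any 1 of the 3 colon EV libraries was left out, miR-10b-5p and miR-10a-3p no longer met the count filter and 3 arms were called, and with the filter set on 2 libraries, chosen after seeing the data, 4 were called.

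In order of log2 fold change from the most colon-enriched, miR-196a-5p stood at position 5 of 220, miR-196b-5p at 17, miR-10b-5p at 21, miR-10a-5p at 54 and miR-10a-3p at 72. All 5 had values below the median of all tested miRNAs, a log2 fold change of 0.19. For miR-10b-5p and miR-10a-3p the count filter partly set this. That median shifted by −0.13 with DESeq2 size factors, 0.20 with upper quartile scaling and 0.45 with the library total alone, all smaller than the changes of miR-196a-5p, miR-196b-5p, miR-10a-5p and miR-10b-5p. Under these 3 scalings, the direction of all 5 arms was the same.

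**Figure D3:**
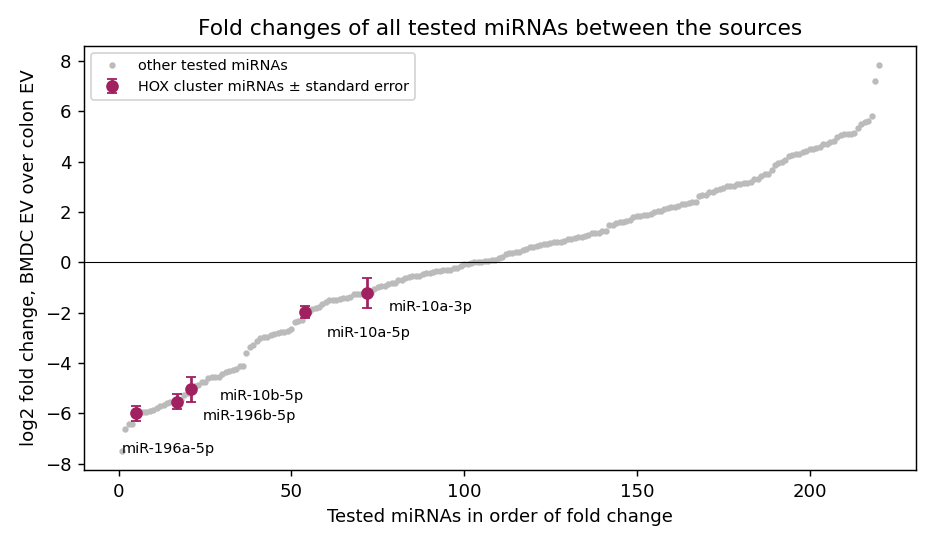
Log2 fold change, BMDC EV over colon EV, of the 220 tested miRNAs in increasing order (grey), with the 5 HOX cluster miRNAs and their standard errors in purple. All 5 lie below 0, from −5.99 for miR-196a-5p to −1.23 for miR-10a-3p, and the median of the 220 is 0.19. miR-10a-3p did not pass (Benjamini-Hochberg adjusted p = 0.0677 in edgeR's quasi-likelihood test). For miR-10b-5p and miR-10a-3p the count filter partly set the direction.

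The miR-10 paralogs differed in how strongly they changed between the sources. Counts of miR-10a-5p were 8.36, 8.42 and 8.79 times those of miR-10b-5p in the 3 colon EV libraries. In the 3 BMDC EV libraries the ratio was 204, 30.7 and 91.7, so that all of them lay above colon EVs, but with a far wider spread. On the log2 scale, with 0.5 added to each count, the ratio was 3.08 ± 0.0368 in colon EVs and 5.99 ± 1.19 in BMDC EVs (SD, n = 3 each). The difference of 2.91 passed edgeR's test for unequal change within a family with Benjamini-Hochberg adjustment over 20 paralog families (adjusted p = 4.16e-05), as did 10 of the 20 families, or 50%. The exact two-sided permutation test over the 6 libraries gave p = 0.1, the smallest it can give. Because miR-10b-5p met the count filter through the colon EV libraries alone, the direction of this difference was partly set by that filter.

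The BMDC EV side of this ratio rests on the few counts of miR-10b-5p. miR-10a-5p made up 89.4% of the pair in colon EVs (exact 95% binomial interval 88.5 to 90.2) and 98.7% in BMDC EVs (97.5 to 99.4), counts summed over libraries, and the intervals cover counting error only. Per library the share was 89.3 to 89.8% in colon EVs and 96.8 to 99.5% in BMDC EVs. Without BMDC EV library 2 the difference in log2 ratio was 3.54, and without BMDC EV library 1 it was 2.36.

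The miR-196 paralogs kept closer to each other. miR-196a-5p had 1.63, 1.61 and 1.75 times the counts of miR-196b-5p in colon EVs and 1.02, 1.42 and 1.22 times in BMDC EVs, so the ratios did not overlap but lay near one another. On the log2 scale the ratio was 0.73 ± 0.0659 and 0.25 ± 0.250 (SD, n = 3 each), and the difference of −0.48 did not pass (Benjamini-Hochberg adjusted p = 0.318 in edgeR's test of unequal change, exact permutation p = 0.1, the smallest it can give). The share of miR-196a-5p in the pair was 62.1% in colon EVs (exact 95% binomial interval 61.5 to 62.7) and 54.1% in BMDC EVs (47.1 to 61.1). These counting intervals did not overlap, while the test over libraries did not separate the sources. Whether reads of colon origin are part of these BMDC EV counts was not tested, which limits the reading of the ratio there.

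The arms of the mir-10a hairpin gave a ratio of miR-10a-5p to miR-10a-3p of 105, 76.7 and 65.9 in colon EVs and 204, 30.7 and 40.1 in BMDC EVs. The BMDC EV libraries lay on both sides of the colon EV range. The difference in log2 ratio of −0.60 did not pass (adjusted p = 0.508 by edgeR's test of unequal change with Benjamini-Hochberg adjustment over 38 hairpins, of which 7 or 18.4% passed, exact permutation p = 0.5), and the 1 to 8 counts of miR-10a-3p per BMDC EV library set its precision.

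Between the families, the balance turned over. miR-196a-5p had 3.16, 3.10 and 3.39 times the counts of miR-10a-5p in colon EVs and 0.178, 0.402 and 0.119 times in BMDC EVs. The difference in log2 ratio was −3.97 (exact permutation p = 0.1, the smallest 3 libraries against 3 can give). Of the counts of the 5 arms in colon EVs, miR-196a-5p made up 51.2% ± 1.17, miR-196b-5p 30.8% ± 0.701, miR-10a-5p 15.9% ± 0.406, miR-10b-5p 1.87% ± 0.0954 and miR-10a-3p 0.200% ± 0.0420 (SD, n = 3). In BMDC EVs, miR-10a-5p made up 70.1% ± 11.7, miR-196a-5p 15.2% ± 6.97, miR-196b-5p 12.3% ± 4.18, miR-10a-3p 1.40% ± 0.906 and miR-10b-5p 1.03% ± 0.765 (SD, n = 3). The colon EV libraries were nearly alike in this make-up, and the BMDC EV libraries varied more.

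**Figure D4:**
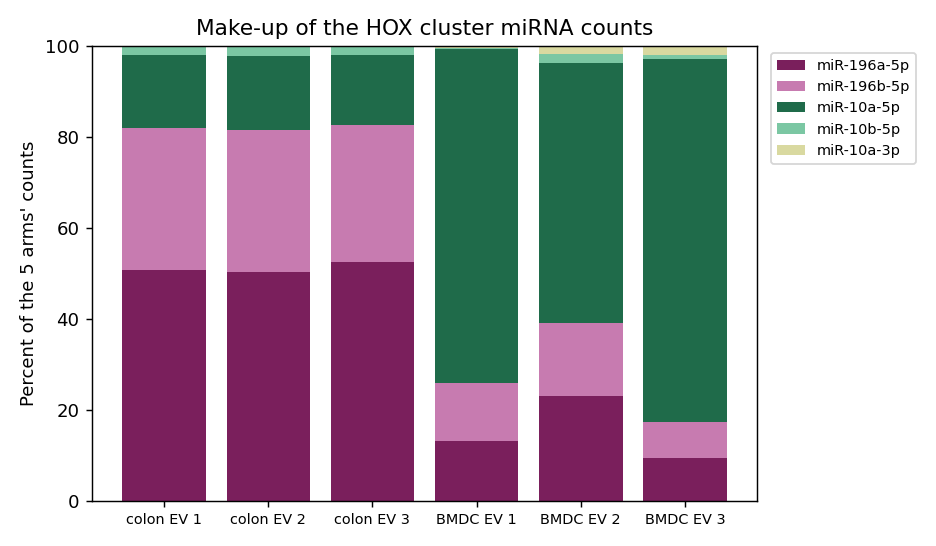
Percent of the summed counts of the 5 HOX cluster miRNAs that each arm took in each library (stacked bars, 1 per library). miR-196a-5p and miR-196b-5p fill most of each colon EV bar (51.2% and 30.8% on average), and miR-10a-5p most of each BMDC EV bar (70.1%).

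Summed by seed, as an alternative added after seeing the data that leaves out how reads were divided between paralogs, miR-10a-5p plus miR-10b-5p had a log2 fold change of −2.15 (SE 0.247, adjusted p = 1.09e-07) and miR-196a-5p plus miR-196b-5p one of −5.81 (SE 0.297, adjusted p = 2.02e-12), both Benjamini-Hochberg adjusted in edgeR's quasi-likelihood test.

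In BMDC EVs the counts of miR-196a-5p and miR-196b-5p varied less between libraries than the library totals did, as did those of the epithelial markers. Summed over libraries, the BMDC EV count was 0.753% of the colon EV count for miR-196a-5p, 1.03% for miR-196b-5p and 1.36% for miR-10b-5p, and it was 0.526 to 1.17% for the 9 epithelial markers, with a median of 0.742%. For miR-10a-5p it was 13.2% and for miR-10a-3p 23.1%. The highest of the 3 BMDC EV counts was 1.06 times the lowest for miR-196a-5p and 1.37 times for miR-196b-5p, although the library totals differed 2.12-fold. The same ratio was 1.09 to 2.00 for the epithelial markers, 1.69 to 3.15 for the blood cell markers and 3.49 for miR-10a-5p. For miR-10b-5p it was 3.5 (1 to 3.5 counts) and for miR-10a-3p 8 (1 to 8 counts). Among other markers higher in colon EVs, it was 2.15 for miR-143-3p (1.72% of the colon EV count). The endothelial miR-126a-3p and miR-126a-5p had ratios of 2.21 (17.3%) and 3 (4.46%). The epithelial markers summed to 840, 668 and 674 counts in the 3 BMDC EV libraries, and whether reads of colon origin are part of the miR-196 counts in BMDC EVs was not tested. The plot of counts in both sources shows these values together.

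**Figure D5:**
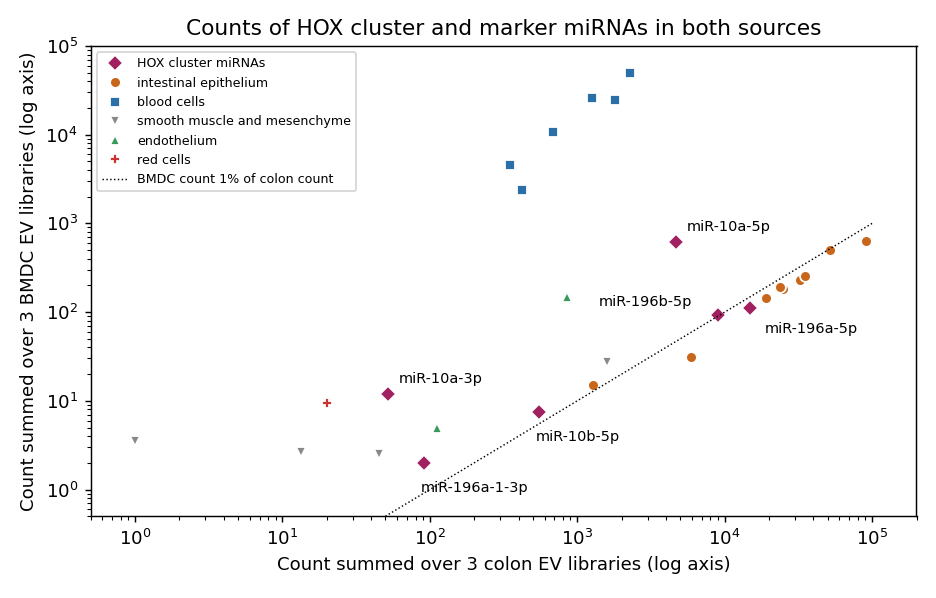
Counts summed over the 3 BMDC EV libraries against counts summed over the 3 colon EV libraries (both axes logarithmic) for the HOX cluster miRNAs, with the 3p arm miR-196a-1-3p added, and for marker miRNAs with at least some count in BMDC EVs. miR-196a-5p (0.753%) and miR-196b-5p (1.03%) lie near the dotted line at 1% with the epithelial markers, and miR-10a-5p (13.2%) lies above it.

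The remaining arms of the hairpins were too low to test, but they separate the copies of mir-196a. The 3p arms of these copies differ at 17 of 22 positions when set side by side without gaps and by 9 edits when gaps are allowed, in contrast to their common 5p arm. They are printed here with the seed in capitals.
mmu-miR-196a-1-3p: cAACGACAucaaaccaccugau
mmu-miR-196a-2-3p: uCGGCAACaagaaacugccuga

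miR-196a-1-3p, from the Hoxb cluster, had 56, 27 and 9 counts in colon EVs and 0, 1 and 1 in BMDC EVs. With counts summed, its ratio of CPM was 17.0, with an exact 95% interval of 4.58 to 143 for counting error only. miR-196a-2-3p, from the Hoxc cluster, had 0 counts in all 6 libraries, which allows up to 2.85 CPM in colon EVs and 7.71 in BMDC EVs, 3 counts of the summed totals. All 3p reads that can be assigned to a copy thus came from Mir196a-1, while the 5p reads cannot be assigned. miR-10b-3p had 6, 1 and 2 counts in colon EVs and miR-196b-3p 1, 0 and 1, and both had 0 in the BMDC EV libraries.

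The miRNAs closest in sequence to miR-10a-5p but outside the Hox clusters are miR-99a-5p, miR-99b-5p and miR-100-5p, which have another seed, ACCCGUA, and lie 3 to 6 edits from miR-10a-5p. miR-99b-5p had a level of 750 ± 120 normalized CPM in colon EVs and 754 ± 132 in BMDC EVs (SD, n = 3 each), which differed by a log2 fold change of 0.02 (Benjamini-Hochberg adjusted p = 0.961 in edgeR's quasi-likelihood test). miR-99a-5p, with 20, 4 and 4 counts in colon EVs and 0, 2 and 0 in BMDC EVs, and miR-100-5p, with 4, 3 and 0 counts in colon EVs and 0 in every BMDC EV library, were too low to test.

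The tested miRNAs whose levels over the 6 libraries were most like those of each arm were found by the Euclidean distance between log2 normalized CPM profiles, each centred on its mean, among 219 candidates. For miR-196a-5p they were miR-200b-3p (distance 0.195), miR-200a-3p (0.465) and miR-194-5p (0.472), and for miR-196b-5p they were miR-200c-3p (0.407), miR-203-3p (0.418) and miR-429-3p (0.541). All of these but miR-203-3p, known from skin and other epithelia, are on the list of epithelial markers. The 3 nearest miRNAs of each miR-10 arm were not on that list. For miR-10b-5p they were miR-141-5p, the other arm of the hairpin of the epithelial marker miR-141-3p (0.777), miR-143-3p, a smooth muscle and mesenchymal marker (0.919), and miR-182-5p (1.26), for miR-10a-5p miR-30e-5p (0.599), miR-26a-5p (0.686) and miR-30c-5p (0.714), and for miR-10a-3p miR-672-5p (0.699), miR-664-5p (0.935) and miR-382-5p (1.06). The 6 points of each profile share their libraries and scaling, so these distances are a description and carry no test.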

How the data were processed

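Small RNA of mouse EVs was sequenced by the study from 3 colon explant and 3 BMDC preparations with the QIAseq miRNA kit. For each mature miRNA the table that the authors deposited holds an estimated count per library, unscaled and not always whole, and 0 sample columns were left unmatched. Per the labels, processing notes name STAR 2.7.6a, featureCounts 1.6.3, DESeq2 1.30.1 and GRCm38 (mm10). The miRNA annotation, the use of molecular identifiers and the treatment of reads matching several miRNAs are not given in the sources used here.

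Counts were rounded and compared in R 4.3.3 with edgeR 4.0.16 (TMM, quasi-likelihood test, no block) over 220 miRNAs (10 or more counts in 3 or more libraries), with Benjamini-Hochberg adjustment at 0.05. Paralog and arm balance used edgeR's diffSpliceDGE on that fit and an exact permutation test. Libraries of a source differed beyond sampling noise (chi-square per degree of freedom at least 6.25 in 6 pairs). DESeq2 1.42.0, limma 3.58.1, other scalings and filters, a replicate block and left-out libraries were alternatives. Scripts were tested on simulated data. Sequences were read from RefSeq and transcripts from GENCODE M21, both on GRCm38.p6. All 5 arms, their 3 nearest profiles each, the marker lists and the related miRNAs are named. Members and lists were chosen with earlier results of these data known.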

Additional observations from a re-analysis of the deposited data

How the results depend on the processing

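Under up to 22 alternatives, every log2 fold change of the HOX cluster miRNAs was below 0. It ranged from −6.50 to −5.36 for miR-196a-5p, −6.04 to −4.90 for miR-196b-5p, −5.55 to −4.25 for miR-10b-5p and −2.50 to −1.33 for miR-10a-5p, and these 4 passed an adjusted p of 0.05 in every alternative in which they were tested. For miR-10a-3p it ranged from −1.96 to −0.37 and passed with DESeq2 size factors in edgeR (−1.38, adjusted p = 0.0494) and without BMDC EV replicate 3 with the filter on 2 libraries (−1.96, adjusted p = 0.0244), and in none of the 16 others (adjusted p over all 18 from 0.0244 to 0.600). In the main fit, miR-10b-5p and miR-10a-3p met the count filter through the colon EV libraries alone. That partly set their direction and that of the miR-10 paralog difference. The number of arms called was 3 to 5. By the study's cutoffs, counted after seeing the data, it was 3 under every alternative but a base level of 50, which gave 4, and with the added log2 fold boundary it was 2 to 3. The share of all tested miRNAs called was taken for the main fit alone (36.4%, 21.8% and 13.2% by these rules in turn), not for the alternatives. With single libraries left out, the difference in log2 ratio between the miR-10 paralogs was 2.36 to 3.54, between the miR-196 paralogs −0.61 to −0.36 and between the mir-10a arms −1.31 to −0.12, and only the first passed.

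With a replicate block, 4 arms were called, 3 by the study's cutoffs and 2 with the fold boundary, and the miR-10 paralog balance had an adjusted p of 7.58e-05; no other call changed. Whether the replicate numbers pair the samples was not settled. Same-numbered libraries of the sources had a mean correlation of −0.0961 of their deviations (3 pairs) against 0.0482 for other pairs (6 pairs). The deviations were centred within each source, which ties these means to each other, so they cannot exclude pairing. In the BMDC EV libraries 3 counts stood for 16.8 to 35.7 CPM, which limits the values of miR-10b-5p and of the 3p arms there.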
